A study of Danio rerio with 28 samples.

Results

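Whole zebrafish embryos of the AB strain that carried a morpholino against pabpc1a (pabpc1a MO) were compared at 6 and 4 hours post fertilisation (hpf). The libraries were taken by their titles: 2 poly(A) libraries at each hour, 4 of the 28 libraries in all. A morpholino is an antisense oligonucleotide that blocks translation or splicing of its target, and pabpc1a encodes a cytoplasmic poly(A)-binding protein. No control morpholino is named in the labels, and the morpholino dose is not given in the sources used here. The same step from 4 to 6 hpf was available in wild type embryos (WT, 2 libraries an hour) and in embryos with a morpholino against ybx1 (ybx1 MO, 2 libraries an hour), also AB strain, whole embryo and poly(A)-selected. The titles of the ybx1 libraries say only MO, and their target was taken from the description of the series. The labels do not state that replicates came from separate clutches, so p-values measure the spread between these samples, which may be technical.

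An early zebrafish embryo first runs on mRNA that the mother laid down in the egg. Between the blastula and the onset of gastrulation its own genome is activated, and many maternal mRNAs are cleared, in part by shortening of their poly(A) tails. Poly(A)-binding proteins cover those tails and link them to translation and to turnover, and at gastrulation the outer enveloping layer and the yolk layer spread over the yolk while the germ layers form beneath.

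The 4 pabpc1a MO libraries held 69151022 and 73476267 counted reads at 4 hpf and 54750694 and 74561829 at 6 hpf. The gene with the most counts over the poly(A) libraries took 25.04% and 25.95% of them at 4 hpf and 25.89% and 32.98% at 6 hpf. Levels are given as CPM, the count of a gene as a share of the scaled library size, for replicate 1 and then replicate 2. They are relative levels: fewer cells of a type and less RNA per cell cannot be told apart in whole embryos, and a change of tail length, not measured here, could alter how much of an mRNA is captured on oligo(dT) beads. Among genes at 1 CPM or more, 2.38% were at least 2-fold apart within the pair at 4 hpf and 3.39% within the pair at 6 hpf. The WT pair at 4 hpf was the least alike, with 11.8% of genes at least 2-fold apart, against 3.44% for WT at 6 hpf. The ybx1 MO pair at 6 hpf was very close, with 0.121%. Within the pabpc1a MO pair at 4 hpf, 27 tested early zygotic transcripts summed to 181 and 558 CPM, so replicate 2 held more of them than replicate 1. The same sum was 2545 and 1464 CPM in WT at 4 hpf, where replicate 1 held more. Markers of later cell types were low: at 6 hpf the 7 tested muscle genes summed to 7.97 and 5.14 CPM, the 4 blood and vessel genes to 2.22 and 2.00 CPM and the 3 neuron genes to 32.3 and 23.8 CPM.

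The step from 4 to 6 hpf changed most of the transcriptome. Of 22377 genes tested with edgeR's quasi-likelihood test at an adjusted p under 0.05, 16219 (72.5%) changed, 8310 upward (37.1%) and 7909 downward (35.3%). The counts of rises and falls in each gene list below stand against these shares. The rises were larger than the falls: 3107 genes rose and 526 fell at least 16-fold, and 5445 rose and 3574 fell at least 4-fold. The median log2 fold change of all tested genes was 0.03. With median-of-ratios scaling that median was 0.36 and the calls were 9431 higher and 6717 lower, so small changes of either sign depend on the scaling. Both libraries at 6 hpf lay above both at 4 hpf for 43.3% of the genes tested and below them for 42.8%, so a gap between the hours in 1 gene is common. Most called genes named below were taken only if they had such a gap, so the gap is not a separate result for them. In WT 13355 genes (59.7%) changed over the same 2 hours, 6233 upward (27.9%) and 7122 downward (31.8%), and in ybx1 MO 16011 (71.6%), 7870 upward (35.2%) and 8141 downward (36.4%). At least 16-fold, 880 genes rose and 274 fell in WT, and 2609 rose and 790 fell in ybx1 MO. Fold changes of genes with few counts at 4 hpf are imprecise, as their standard errors (SE) show.

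A small set of genes went from almost no reads to clear expression. At 4 hpf 73 genes had 3 or fewer counts over both pabpc1a MO libraries and at least 10 CPM at 6 hpf, and 57 of these have a symbol. Only 1 gene, without a symbol, did the reverse. Of the genes with a symbol, 15 had no count at all at 4 hpf and at least 10 CPM at 6 hpf. The following 3 of them were chosen after their values were seen. The gene mespab, a bHLH factor of presomitic mesoderm, was at 0 in both libraries at 4 hpf and at 26.6 and 19.8 CPM at 6 hpf, at least 1385-fold higher against a floor of 3 counts over the pair. A copy of afp4 (ENSDARG00000041490) reached 59.8 and 37.6 CPM, at least 2907-fold higher on the same floor. The gene pnhd (pinhead, a secreted protein of the mesoderm) reached 78.5 and 79.2 CPM, at least 4708-fold higher. All 3 were detected only at 6 hpf in these embryos. In WT, pnhd was already at 3.66 and 0.922 CPM at 4 hpf.

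**Figure D1:**
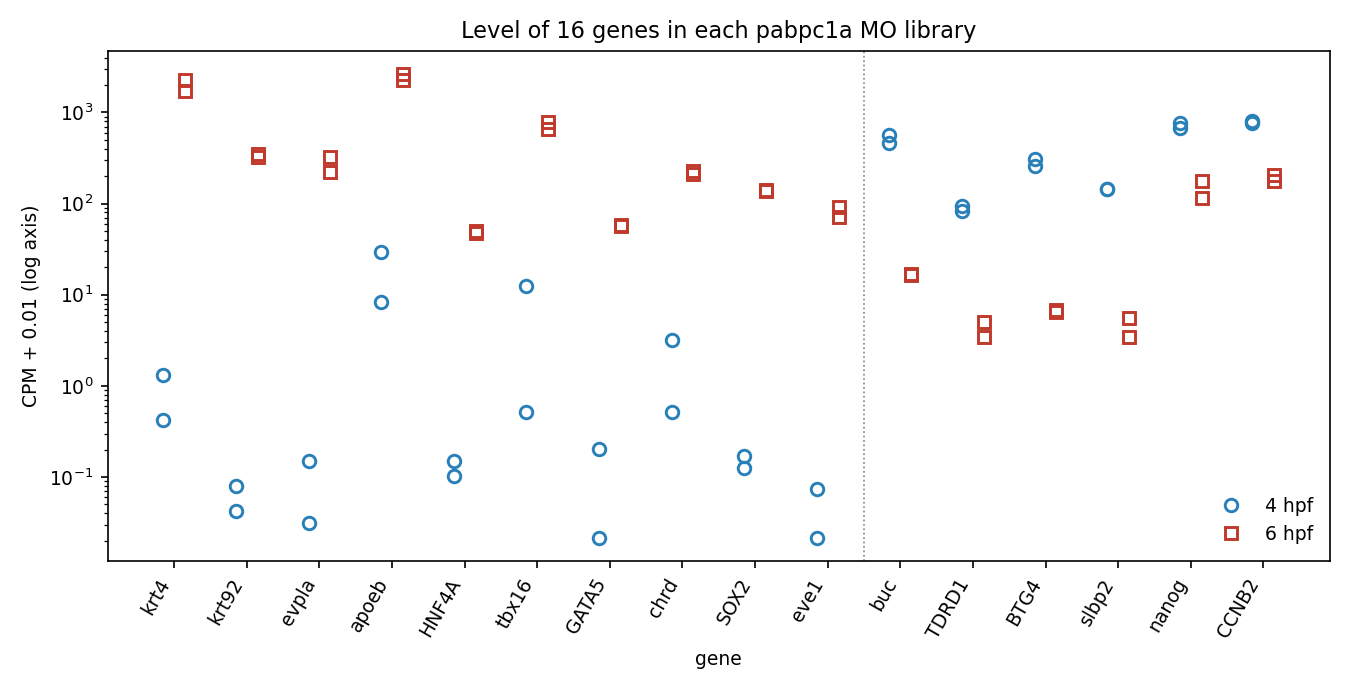
Level of 16 genes in each pabpc1a MO library, as CPM + 0.01 on a log axis, with circles for the 2 libraries at 4 hpf and squares for the 2 at 6 hpf. Left of the dotted line are 10 genes that rose, such as krt4 (0.408 and 1.30 CPM at 4 hpf and 2249 and 1727 CPM at 6 hpf), and right of it are 6 that fell, such as buc (565 and 461 CPM at 4 hpf and 17.1 and 16.5 CPM at 6 hpf).

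Both knockdown targets rose in the pabpc1a MO embryos. The target pabpc1a itself was at 484 and 509.9 CPM at 4 hpf and 1501 and 1391 CPM at 6 hpf, a log2 fold change of 1.54 ± 0.15 (SE), edgeR adjusted p = 1.63e-07. YBX1 was at 412 and 398 CPM at 4 hpf and 3193 and 2803 CPM at 6 hpf, a log2 fold change of 2.89 ± 0.19 (SE), edgeR adjusted p = 1.85e-09. Both libraries at 6 hpf were above both at 4 hpf for each gene. A morpholino can leave its target mRNA in place, so these levels do not check the labels. In the list of poly(A)-binding proteins, which includes their binding partner PAIP1, 4 of 7 tested genes rose and 3 fell, against 37.1% and 35.3% of all genes. The somatic forms rose: pabpc1b, a close copy of pabpc1a, was at 5.13 and 5.70 CPM at 4 hpf and 17.8 and 19.6 CPM at 6 hpf (log2 fold change 1.79 ± 0.20 (SE), edgeR adjusted p = 5.89e-07). PABPN1, the nuclear poly(A)-binding protein, rose too (log2 fold change 1.60 ± 0.13 (SE), edgeR adjusted p = 1.73e-08). The forms known from oocytes and early embryos fell. PABPC1L was at 133 and 134 CPM at 4 hpf and 32.9 and 42.4 CPM at 6 hpf. The gene pabpn1l was at 163 and 144 CPM at 4 hpf and 28.8 and 30.1 CPM at 6 hpf. PAIP1, which binds poly(A)-binding protein and is not one itself, fell too, at 48.0 and 52.3 CPM at 4 hpf and 8.54 and 9.61 CPM at 6 hpf. For these 3 genes the log2 fold changes ran from -1.82 to -2.46 (largest edgeR adjusted p = 4.85e-09).

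The enveloping layer, the first epithelium of the embryo, had the largest median rise of the 38 lists. Of 25 tested members 20 rose and 1 fell, against 37.1% and 35.3% of all genes, with a median log2 fold change of 8.70 against 0.03. The list summed to 349 and 550 CPM at 4 hpf and to 10885 and 9211 CPM at 6 hpf. The keratin gene krt4 had a log2 fold change of 11.17 ± 1.56 (SE), edgeR adjusted p = 7.05e-05. Its relative krt5 was at 0.292 and 0.321 CPM at 4 hpf and 1647 and 1254 CPM at 6 hpf. The gene krt92 was at 0.0700 and 0.0321 CPM at 4 hpf and 351 and 327 CPM at 6 hpf. All 3 keratins were at 1.30 CPM or less in every library at 4 hpf and at 327 CPM or more at 6 hpf. Keratins form a large family of like sequence, so the share of reads between copies is uncertain. The gene evpla, for envoplakin of the cell cortex, was at 0.140 and 0.0214 CPM at 4 hpf and 323 and 222 CPM at 6 hpf (log2 fold change 11.73 ± 1.28 (SE), edgeR adjusted p = 1.72e-05). CAPN9, a calpain protease, was at 0.128 and 0.0643 CPM at 4 hpf and 266 and 224 CPM at 6 hpf. For krt5, krt92 and CAPN9 the log2 fold changes ran from 11.31 to 12.67 (largest edgeR adjusted p = 9.35e-04). The claudin gene cldne, of tight junctions, started higher, at 1.26 and 6.88 CPM at 4 hpf and 571 and 488 CPM at 6 hpf. Its libraries at 4 hpf were uneven, with replicate 2 the higher, as for krt4, and its log2 fold change was 7.02 ± 0.98 (SE), edgeR adjusted p = 6.56e-05. Of the 4 members that did not pass the test, the protease gene st14a (matriptase) was at 170 and 175 CPM at 4 hpf and 129.7 and 166 CPM at 6 hpf (edgeR adjusted p = 0.284). The adhesion gene epcam was at 111 and 187 CPM at 4 hpf and 97.9 and 168 CPM at 6 hpf (edgeR adjusted p = 0.780), so both genes were well detected at 4 hpf. The 1 member that fell, named for that, was TP63, an epidermal transcription factor, at 4.99 and 4.51 CPM at 4 hpf and 2.79 and 2.71 CPM at 6 hpf (log2 fold change -0.79 ± 0.23 (SE), edgeR adjusted p = 0.00644, and adjusted p = 0.0889 with median-of-ratios scaling).

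Several of the 15 largest rises outside that list were also of genes near 0 at 4 hpf. LCP1, the actin-bundling protein plastin, was at 0.0583 and 0.0857 CPM at 4 hpf and 425 and 326 CPM at 6 hpf (log2 fold change 12.31 ± 0.89 (SE), edgeR adjusted p = 1.91e-07). The cell adhesion gene alcamb was at 0.105 and 0.278 CPM at 4 hpf and 678 and 579.9 CPM at 6 hpf. B3GNT5, a glycosyltransferase gene, here ENSDARG00000018971, was at 0.0233 and 0.0214 CPM at 4 hpf and 128 and 117 CPM at 6 hpf. For the last 2 the log2 fold changes ran from 11.65 to 12.32 (largest edgeR adjusted p = 1.57e-06). The secreted fetuin gene fetub was at 0.0117 and 0.0428 CPM at 4 hpf and 216 and 142 CPM at 6 hpf. NR0B2, a nuclear receptor that represses other receptors, was at 0.0233 and 0.0428 CPM at 4 hpf and 157 and 123 CPM at 6 hpf. The cathepsin gene ctsll was at 0.128 and 0.118 CPM at 4 hpf and 305 and 382 CPM at 6 hpf. For these 3 the log2 fold changes ran from 11.43 to 12.56 (largest edgeR adjusted p = 9.00e-06).

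Genes of the yolk syncytial layer, the nuclear layer that feeds on and moves over the yolk, rose as a group. Of 16 tested members 13 rose and none fell, with a median log2 fold change of 6.99. The apolipoprotein gene apoeb was at 8.32 and 29.6 CPM at 4 hpf and 2644 and 2291 CPM at 6 hpf (log2 fold change 7.02 ± 0.97 (SE), edgeR adjusted p = 5.86e-05). The lipid-binding gene afp4, here ENSDARG00000095863, was at 0.140 and 0.0214 CPM at 4 hpf and 323 and 292 CPM at 6 hpf. HNF4A, a nuclear receptor of the yolk and liver programme, was at 0.0933 and 0.139 CPM at 4 hpf and 49.7 and 47.0 CPM at 6 hpf. Of these genes apoeb alone was well detected at 4 hpf, more so in replicate 2. For afp4 and HNF4A the log2 fold changes ran from 8.67 to 11.91 (largest edgeR adjusted p = 1.94e-06). CEBPA, a transcription factor of metabolic tissues, was at 0.105 and 0.150 CPM at 4 hpf and 46.8 and 46.9 CPM at 6 hpf. The early regulator mxtx2, which starts the yolk layer programme, did not pass the test, at 8.35 and 18.8 CPM at 4 hpf and 4.47 and 7.80 CPM at 6 hpf (edgeR adjusted p = 0.138). YAP1, a Hippo pathway coactivator, did not pass it either, at 87.4 and 98.9 CPM at 4 hpf and 91.5 and 102 CPM at 6 hpf (edgeR adjusted p = 0.661).

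Mesoderm and endoderm genes of the Nodal pathway rose with them. Nodal ligands induce both layers at the margin, Lefty proteins are their inhibitors, and T-box and GATA factors are among their targets. Of 13 tested members 11 rose and 1 fell (median log2 fold change 4.08). The ligand ndr1 did not pass the test, at 2.38 and 4.16 CPM at 4 hpf and 3.10 and 5.06 CPM at 6 hpf (edgeR adjusted p = 0.379). The Lefty gene lft1 was at 0.898 and 1.93 CPM at 4 hpf and 42.1 and 40.1 CPM at 6 hpf (log2 fold change 4.86 ± 0.42 (SE), edgeR adjusted p = 5.28e-08). The homeobox target mixl1 was at 1.13 and 1.87 CPM at 4 hpf and 75.5 and 90.4 CPM at 6 hpf. For mixl1 the log2 fold change was 5.78 ± 0.40 (SE), edgeR adjusted p = 7.72e-09. The ligand's levels overlapped between the hours. The genes lft1 and mixl1 were named by a rule that asked for no overlap, so a contrast with them is no result. The T-box gene tbx16 was at 0.502 and 12.5 CPM at 4 hpf and 655 and 782 CPM at 6 hpf (log2 fold change 6.79 ± 1.25 (SE), edgeR adjusted p = 5.81e-04). Its 2 libraries at 4 hpf were far apart, with replicate 2 the higher, and with only these 4 libraries fitted its edgeR adjusted p was 0.0707. The 1 member that fell, named for that, was SMAD2, the intracellular mediator of Nodal signals, at 79.4 and 105 CPM at 4 hpf and 11.4 and 13.5 CPM at 6 hpf (log2 fold change -2.89 ± 0.23 (SE), edgeR adjusted p = 1.86e-08). All 3 tested endoderm genes rose, of which GATA5 is counted in the Nodal list too. GATA5 was at 0.0117 and 0.193 CPM at 4 hpf and 56.8 and 57.9 CPM at 6 hpf. The forkhead gene foxa3 was at 0.0583 and 1.12 CPM at 4 hpf and 104 and 111 CPM at 6 hpf. FOXA2, also of the organizer and floor plate, was at 0.105 and 0.129 CPM at 4 hpf and 29.7 and 26.8 CPM at 6 hpf. Their log2 fold changes were 9.07, 7.47 and 7.89 (edgeR adjusted p = 1.49e-05, 4.37e-05 and 9.90e-10).

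Of 12 tested genes of the dorsal organizer, the signalling centre that sets the back of the embryo, 10 rose and none fell (median log2 fold change 4.04). The BMP inhibitor chrd (chordin) was at 0.513 and 3.17 CPM at 4 hpf and 229 and 214 CPM at 6 hpf (log2 fold change 6.90 ± 0.93 (SE), edgeR adjusted p = 4.81e-05). The secreted Wnt inhibitor frzb was at 0.362 and 0.535 CPM at 4 hpf and 35.6 and 30.3 CPM at 6 hpf. The head gene otx2a was at 0.0816 and 0.353 CPM at 4 hpf and 104 and 111 CPM at 6 hpf. For frzb and otx2a the log2 fold changes ran from 6.19 to 8.91 (largest edgeR adjusted p = 2.09e-08). The maternal-Wnt target dharma, which acts before gastrulation, did not pass the test, at 0.910 and 1.91 CPM at 4 hpf and 0.968 and 1.78 CPM at 6 hpf (edgeR adjusted p = 0.969).

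On the ventral and posterior side 13 of 15 tested members rose and 1 fell (median log2 fold change 4.26). The BMP ligand bmp7a was at 1.67 and 2.09 CPM at 4 hpf and 97.6 and 101 CPM at 6 hpf (log2 fold change 5.72 ± 0.70 (SE), edgeR adjusted p = 1.80e-05). BMP4 was at 0.502 and 0.321 CPM at 4 hpf and 25 and 22.1 CPM at 6 hpf. Of the factors downstream, the homeobox gene eve1 was at 0.0117 and 0.0643 CPM at 4 hpf and 92.0 and 70.5 CPM at 6 hpf. Ligands and target were low at 4 hpf, and for BMP4 and eve1 the log2 fold changes ran from 5.84 to 10.96 (largest edgeR adjusted p = 1.42e-05). TFAP2C, of the early ectoderm, was at 0.140 and 0.482 CPM at 4 hpf and 109 and 95.2 CPM at 6 hpf. The gene cdx4, which sets posterior Hox genes, was at 0.443 and 0.535 CPM at 4 hpf and 118 and 84.5 CPM at 6 hpf. For these factors the log2 fold changes ran from 7.68 to 8.33 (largest edgeR adjusted p = 2.03e-06). The Hox and posterior axis list, in which cdx4 is counted too, had 7 of 8 members up and none down. The homeobox gene msx1b, a BMP target, did not pass the test, at 7.32 and 6.61 CPM at 4 hpf and 12.8 and 8.42 CPM at 6 hpf (edgeR adjusted p = 0.109). The 1 member that fell, named for that, was SMAD5, a BMP signal transducer, at 193 and 205 CPM at 4 hpf and 151 and 174 CPM at 6 hpf (log2 fold change -0.29 ± 0.11 (SE), edgeR adjusted p = 0.0273). With median-of-ratios scaling its log2 fold change was 0.03.

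The Wnt list had 12 of 14 tested members up and none down (median log2 fold change 2.51). The receptor FZD10 was at 0.420 and 0.396 CPM at 4 hpf and 20.2 and 20.4 CPM at 6 hpf (log2 fold change 5.63 ± 0.30 (SE), edgeR adjusted p = 2.31e-10). The ligand wnt11f2, which drives convergence movements, was at 3.99 and 10.9 CPM at 4 hpf and 126 and 149 CPM at 6 hpf. The inhibitor dkk1b was at 0.653 and 2.36 CPM at 4 hpf and 18.9 and 21.0 CPM at 6 hpf. These 3 genes rose (for the last 2 the log2 fold changes ran from 3.73 to 4.20 (largest edgeR adjusted p = 5.73e-05)), and so did the co-receptor GPC4, a glypican (log2 fold change 2.55 ± 0.18 (SE), edgeR adjusted p = 2.50e-09). The nuclear mediator LEF1 did not pass the test, at 50.2 and 56.5 CPM at 4 hpf and 45.1 and 41.0 CPM at 6 hpf (edgeR adjusted p = 0.349).

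In the FGF list 10 of 12 tested members rose and 1 fell (median log2 fold change 4.16). The ligand fgf24 was at 0.0117 and 0.0964 CPM at 4 hpf and 13.2 and 15.2 CPM at 6 hpf. The receptor fgfr4 was at 0.711 and 11.9 CPM at 4 hpf and 287 and 265 CPM at 6 hpf. The target transcription factor ETV4 was at 6.11 and 8.05 CPM at 4 hpf and 155 and 129.8 CPM at 6 hpf. Of these 3 genes, fgfr4 was uneven at 4 hpf (edgeR adjusted p = 0.0681 with only these 4 libraries fitted). Their log2 fold changes ran from 4.33 to 7.96 (largest edgeR adjusted p = 8.30e-04). The feedback inhibitor spred2a was at 0.0350 and 0.139 CPM at 4 hpf and 31.1 and 34.9 CPM at 6 hpf (log2 fold change 8.51 ± 0.77 (SE), edgeR adjusted p = 4.00e-07). The 1 member that fell, named for that, was etv5a, another target transcription factor, at 209 and 206 CPM at 4 hpf and 52.2 and 44.8 CPM at 6 hpf (log2 fold change -2.10 ± 0.19 (SE), edgeR adjusted p = 6.48e-08). In the retinoic acid list 4 of 5 rose and none fell. ALDH1A2, which makes retinoic acid, was at 0.851 and 0.814 CPM at 4 hpf and 116 and 85.4 CPM at 6 hpf (log2 fold change 6.91 ± 0.43 (SE), edgeR adjusted p = 2.69e-09). CYP26A1, which breaks it down, was at 29.7 and 37.0 CPM at 4 hpf and 127 and 137 CPM at 6 hpf. Both enzymes rose (CYP26A1 log2 fold change 1.99 ± 0.15 (SE), edgeR adjusted p = 6.58e-09). In the Hedgehog list 3 of 6 rose and 2 fell, against 37.1% and 35.3% of all genes. The transducer SMO was at 2.20 and 2.00 CPM at 4 hpf and 127 and 121 CPM at 6 hpf. Its log2 fold change was 5.88 ± 0.33 (SE), edgeR adjusted p = 8.68e-10.

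Many genes of later somites and of neural tissue rose. In the Notch and segmentation list 14 of 19 rose and 2 fell (median log2 fold change 7.39). The receptor NOTCH3 was at 0.0467 and 0.0857 CPM at 4 hpf and 85.0 and 76.7 CPM at 6 hpf. The ligand dlc was at 0.117 and 0.268 CPM at 4 hpf and 61.1 and 48.7 CPM at 6 hpf (log2 fold change 8.13 ± 0.30 (SE), edgeR adjusted p = 1.33e-11). The somite boundary gene ripply1 was at 0.105 and 0.0428 CPM at 4 hpf and 22.9 and 20.1 CPM at 6 hpf. All 3 were near 0 at 4 hpf, and for NOTCH3 and ripply1 the log2 fold changes ran from 8.17 to 10.20 (largest edgeR adjusted p = 4.36e-06). The ligand DLD was at 64.0 and 58.2 CPM at 4 hpf and 75.2 and 74.6 CPM at 6 hpf and did not pass the test (edgeR adjusted p = 0.0764), though it did with a stricter filter on low counts (edgeR adjusted p = 0.0121). In the neural plate list 8 of 15 rose and 5 fell, the latter near the 35.3% of all genes. The 5 that fell were her5, GMNN, sox19b, rx3 and neurog1. SOX2, a neural and pluripotency factor, was at 0.117 and 0.161 CPM at 4 hpf and 141 and 136 CPM at 6 hpf (log2 fold change 9.94 ± 0.56 (SE), edgeR adjusted p = 2.73e-09). The gene sox19a, the first SoxB1 gene transcribed by the embryo, was at 4.83 and 21.9 CPM at 4 hpf and 529 and 538 CPM at 6 hpf. For sox19a the log2 fold change was 5.32 ± 0.73 (SE), edgeR adjusted p = 5.15e-05. The maternal relative of sox19a, sox19b, fell from 522 and 478 CPM at 4 hpf to 72.0 and 58.0 CPM at 6 hpf.

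Genes of cell movement and adhesion rose more often than they fell. In the list of planar polarity and gastrulation movements 14 of 18 rose and none fell (median log2 fold change 2.42). The protocadherin gene pcdh8, of the migrating mesoderm, was at 0.385 and 0.396 CPM at 4 hpf and 150.3 and 135 CPM at 6 hpf (log2 fold change 8.50 ± 0.48 (SE), edgeR adjusted p = 2.90e-09). The peptide hormone gene apela was at 0.292 and 2.65 CPM at 4 hpf and 80.4 and 62.7 CPM at 6 hpf. Its receptor gene aplnra was at 0 and 0.118 CPM at 4 hpf and 7.86 and 14.1 CPM at 6 hpf. Hormone and receptor both rose, and their log2 fold changes ran from 5.59 to 7.46 (largest edgeR adjusted p = 1.76e-04). The chemokine gene cxcl12b was at 0.0467 and 0.364 CPM at 4 hpf and 14.2 and 14.3 CPM at 6 hpf. HAS2, which makes hyaluronan, was at 0.128 and 9.0 CPM at 4 hpf and 79.2 and 90.2 CPM at 6 hpf, with a wide gap inside the pair at 4 hpf (edgeR adjusted p = 0.154 with only these 4 libraries fitted). For these 2 the log2 fold changes ran from 4.21 to 6.08 (largest edgeR adjusted p = 0.00665). The polarity gene SCRIB did not pass the test, at 168 and 179 CPM at 4 hpf and 179 and 198 CPM at 6 hpf (edgeR adjusted p = 0.308, and 0.0264 with a stricter filter on low counts). In the list of epiboly, adhesion and cytoskeleton 14 of 22 rose and 4 fell. N-cadherin, CDH2, was at 8.30 and 9.94 CPM at 4 hpf and 197 and 178 CPM at 6 hpf (log2 fold change 4.36 ± 0.25 (SE), edgeR adjusted p = 6.91e-10). The GTPase gene rhoaa was at 2.64 and 3.05 CPM at 4 hpf and 209 and 173 CPM at 6 hpf, while the GTPase CDC42 was at 55.6 and 58.6 CPM at 4 hpf and 65.7 and 67.7 CPM at 6 hpf and did not pass the test (edgeR adjusted p = 0.0726, and 0.00532 with that filter).

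**Figure D2:**
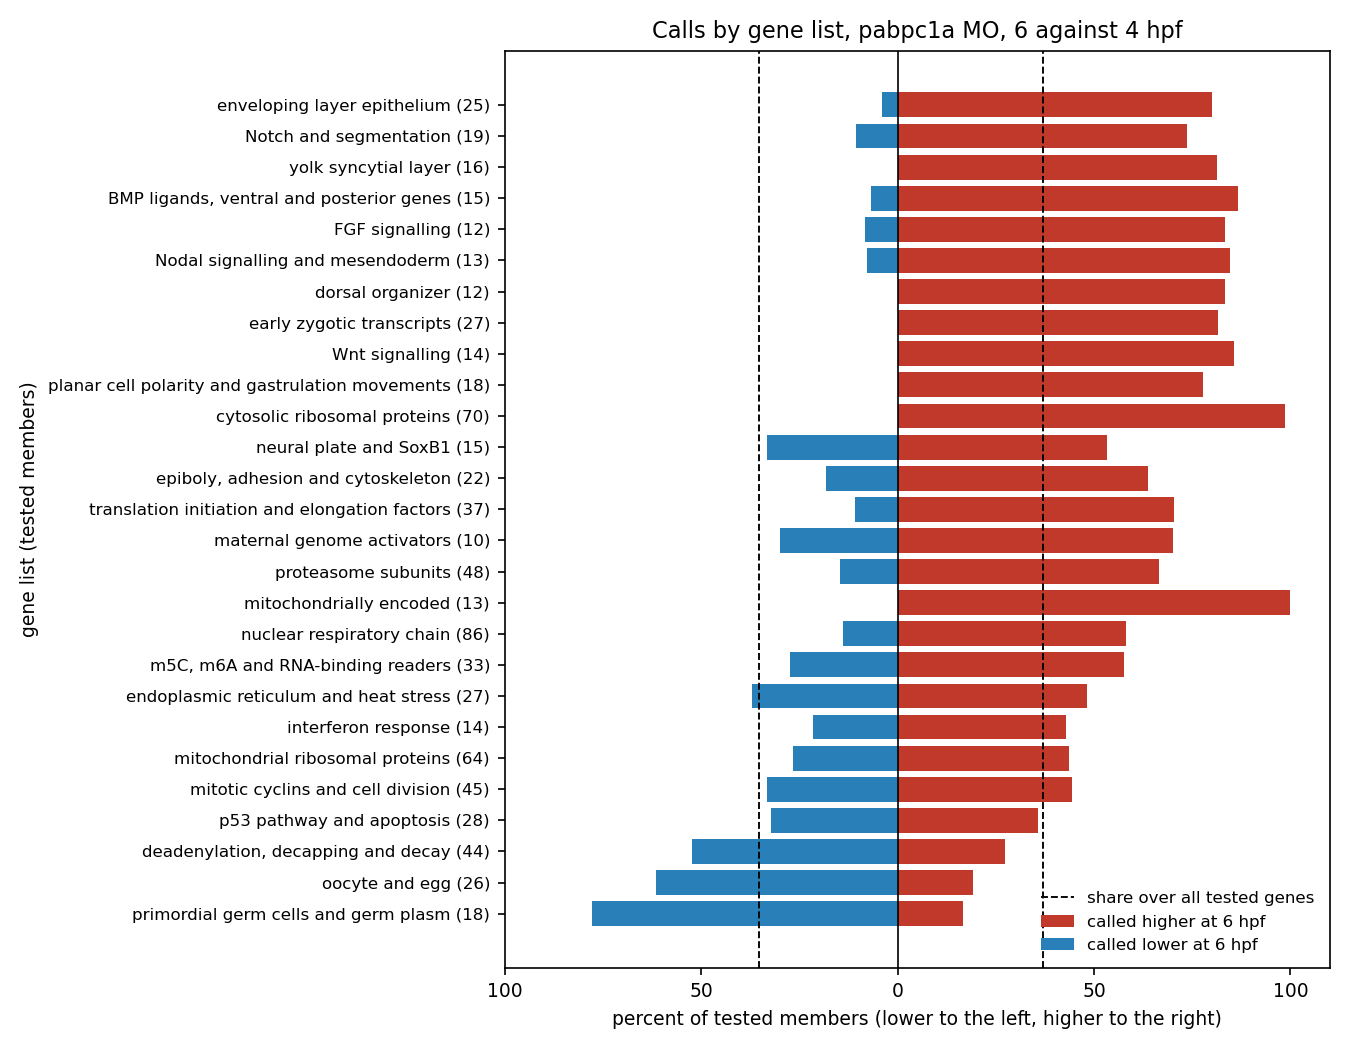
Share of the tested members of each list of 10 or more genes called higher (right) or lower (left) at 6 hpf in pabpc1a MO, with the number tested in parentheses. Dashed lines give the share over all 22377 genes, 37.1% higher and 35.3% lower. Embryonic patterning lists lie right of it, and the lists of germ plasm and of oocyte genes reach beyond it on the left.

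Most listed genes of germ plasm and of the egg fell. In the list of germ plasm and primordial germ cell genes 14 of 18 fell and 3 rose (median log2 fold change -1.90), and the list's sum went from 1844 and 1681 CPM to 799 and 924 CPM. Bucky ball, buc, which organises germ plasm, had a log2 fold change of -4.94 ± 0.24 (SE), edgeR adjusted p = 1.44e-10. The Tudor gene TDRD1 was at 94.4 and 83.8 CPM at 4 hpf and 4.98 and 3.46 CPM at 6 hpf. TDRD6 was at 187 and 127 CPM at 4 hpf and 19.1 and 11.5 CPM at 6 hpf. For both Tudor genes the log2 fold changes ran from -3.37 to -4.42 (largest edgeR adjusted p = 2.10e-06). One of the 3 that rose was asb11, at 0.245 and 5.24 CPM at 4 hpf and 202 and 303 CPM at 6 hpf, and it is known in zebrafish for embryonic progenitors as well (log2 fold change 6.51 ± 1.1 (SE), edgeR adjusted p = 3.99e-04, and edgeR adjusted p = 0.0508 with only these 4 libraries fitted). In the oocyte and egg list 16 of 26 fell and 5 rose (median log2 fold change -1.27). The sum of this list went the other way, from 4695 and 4560 CPM at 4 hpf to 6619 and 6264 CPM at 6 hpf. BTG4, the adaptor that brings deadenylase to maternal mRNA, was at 310.1 and 259.7 CPM at 4 hpf and 6.40 and 6.74 CPM at 6 hpf (log2 fold change -5.44 ± 0.37 (SE), edgeR adjusted p = 2.23e-08). The oocyte histone mRNA binder slbp2 was at 145 and 145 CPM at 4 hpf and 3.42 and 5.56 CPM at 6 hpf. The kinase MOS, of meiotic arrest, was at 54.0 and 45.8 CPM at 4 hpf and 2.93 and 3.31 CPM at 6 hpf. For slbp2 and MOS the log2 fold changes ran from -3.99 to -4.99 (largest edgeR adjusted p = 6.63e-09). The oocyte growth factor gene bmp15 was at 57.7 and 55.6 CPM at 4 hpf and 2.08 and 2.65 CPM at 6 hpf (log2 fold change -4.57 ± 0.31 (SE), edgeR adjusted p = 3.96e-09).

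The maternal activators of the genome split. Of 10 tested 7 rose and 3 fell, against 37.1% and 35.3% of all genes. The homeobox gene nanog was at 672 and 761 CPM at 4 hpf and 115 and 176 CPM at 6 hpf (log2 fold change -2.30 ± 0.16 (SE), edgeR adjusted p = 1.82e-09), and sox19b had a log2 fold change of -2.94 ± 0.22 (SE), edgeR adjusted p = 1.32e-08. The third of the main activators, pou5f3, was at 410.4 and 444 CPM at 4 hpf and 1094 and 1251 CPM at 6 hpf (log2 fold change 1.46 ± 0.15 (SE), edgeR adjusted p = 1.69e-07). The activators thus went in both directions. Of the 10 most abundant mRNAs that fell, DNMT1, the maintenance DNA methyltransferase, was at 809.8 and 816 CPM at 4 hpf and 94.0 and 98.0 CPM at 6 hpf. The histone chaperone NASP was at 704 and 653 CPM at 4 hpf and 188 and 208 CPM at 6 hpf. For these 2 the log2 fold changes ran from -1.78 to -3.08 (largest edgeR adjusted p = 2.66e-09). The largest fall on the log2 scale among the genes that met the naming rule was that of PLD1, a phospholipase D gene, here ENSDARG00000056228, at 17.3 and 18 CPM at 4 hpf and 0.228 and 0.269 CPM at 6 hpf (log2 fold change -6.12 ± 0.53 (SE), edgeR adjusted p = 5.84e-08). PIK3CD, a phosphoinositide kinase subunit, was at 56.0 and 52.8 CPM at 4 hpf and 1.22 and 1.74 CPM at 6 hpf. PIK3CD had a log2 fold change of -5.17 ± 0.27 (SE), edgeR adjusted p = 1.44e-10.

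Of 45 cell division genes 20 rose and 15 fell, near the 37.1% and 35.3% of all genes, with a median log2 fold change of 0.04, a value close enough to 0 for its sign to depend on scaling. Mitotic and early embryonic cyclin genes were among those that fell. CCNB1 was at 1111 and 1090 CPM at 4 hpf and 634 and 661 CPM at 6 hpf. CCNB2 was at 799.7 and 763 CPM at 4 hpf and 204 and 176 CPM at 6 hpf. The germ line cyclin gene CCNA1 was at 707 and 641 CPM at 4 hpf and 75.1 and 107 CPM at 6 hpf. Their log2 fold changes were -0.77, -2.04 and -2.88 (edgeR adjusted p = 2.20e-05, 2.80e-09 and 5.87e-11). Other members rose. The mitotic inhibitor kinase WEE1 was at 19.0 and 25.3 CPM at 4 hpf and 199 and 197 CPM at 6 hpf. The gene cdkn1ca, a cyclin kinase inhibitor, was at 3.32 and 6.38 CPM at 4 hpf and 62.0 and 69.6 CPM at 6 hpf. The replication helicase gene MCM3 was at 0.257 and 0.760 CPM at 4 hpf and 65.5 and 81.5 CPM at 6 hpf. For the last 3 the log2 fold changes ran from 3.16 to 7.16 (largest edgeR adjusted p = 1.27e-06).

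Of 28 p53 and apoptosis genes 10 rose and 9 fell, near the shares of all genes. The stress gene sesn3, of the sestrin family, was at 0.117 and 0.407 CPM at 4 hpf and 315 and 287 CPM at 6 hpf. PHLDA3, a p53 target, was at 0.222 and 0.750 CPM at 4 hpf and 10.7 and 20.4 CPM at 6 hpf. For these 2 the log2 fold changes ran from 4.99 to 10.13 (largest edgeR adjusted p = 6.35e-06). MDM4, a p53 inhibitor, fell, at 149 and 131 CPM at 4 hpf and 15.8 and 14.6 CPM at 6 hpf (log2 fold change -3.20 ± 0.23 (SE), edgeR adjusted p = 4.75e-09). In the endoplasmic reticulum and heat stress list 13 of 27 rose and 10 fell, the falls near the 35.3% of all genes. HSPB1, a small heat shock protein gene, was at 2.20 and 6.00 CPM at 4 hpf and 1444 and 1639 CPM at 6 hpf. HSPA8, the constitutive cytosolic chaperone, here ENSDARG00000068992, was at 1313 and 1279 CPM at 4 hpf and 5471 and 5149 CPM at 6 hpf. Both rose (edgeR adjusted p = 7.30e-07 and 5.54e-10). The reticulum chaperone HSP90B1 was at 402 and 423 CPM at 4 hpf and 84.9 and 101 CPM at 6 hpf. HERPUD1, of reticulum-associated degradation, was at 135 and 138 CPM at 4 hpf and 28.8 and 27.6 CPM at 6 hpf. Both fell (edgeR adjusted p = 1.37e-10 and 6.33e-10). Of 14 interferon response genes 6 rose and 3 fell, against 37.1% and 35.3% of all genes. The gene isg15, an interferon-induced ubiquitin-like gene, was at 0.618 and 3.73 CPM at 4 hpf and 15.5 and 21.6 CPM at 6 hpf (edgeR adjusted p = 0.00634).

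Genes of the translation machinery rose. Of 70 tested cytosolic ribosomal protein genes 69 rose and none fell (median log2 fold change 2.38), and the list went from 5559 and 5028 CPM to 27226 and 23107 CPM. As a share of counted reads it went from 0.689% and 0.639% to 1.75% and 1.95%. The size of the rise in CPM thus depends on the scaling. RPS6 was at 52.4 and 50.8 CPM at 4 hpf and 579 and 498 CPM at 6 hpf (log2 fold change 3.38 ± 0.17 (SE), edgeR adjusted p = 1.35e-10). RPL29 was at 11.9 and 9.30 CPM at 4 hpf and 174 and 175 CPM at 6 hpf. For RPL29 the log2 fold change was 4.04 ± 0.14 (SE), edgeR adjusted p = 1.26e-11. Ribosomal protein genes have processed copies, so their reads may be shared. Of 37 initiation and elongation factors 26 rose and 4 fell (median log2 fold change 1.14). The elongation factor gene eef1a1l1 was at 1178 and 1236 CPM at 4 hpf and 13934 and 12472 CPM at 6 hpf (log2 fold change 3.45 ± 0.20 (SE), edgeR adjusted p = 5.45e-10), and was the most abundant of the genes with a symbol that rose. EIF4A2, a helicase subunit, was at 0.933 and 0.803 CPM at 4 hpf and 99.5 and 76.6 CPM at 6 hpf (log2 fold change 6.66 ± 0.52 (SE), edgeR adjusted p = 7.26e-08). The initiation factor EIF1B did not pass the test, at 499 and 459 CPM at 4 hpf and 434 and 436 CPM at 6 hpf (edgeR adjusted p = 0.266).

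All 13 mitochondrially encoded mRNAs rose in CPM, by a median of 0.85 on the log2 scale. This rise depends on the scaling of library sizes. As a share of counted reads they were at 1.36% and 1.53% at 4 hpf and 1.38% and 1.67% at 6 hpf, so the hours overlapped. The scaling factors of these libraries were 1.24 and 1.27 at 4 hpf and 0.642 and 0.846 at 6 hpf. MT-CO1, a subunit of complex IV, was at 3568 and 4071 CPM at 4 hpf and 7428 and 6415 CPM at 6 hpf (log2 fold change 0.86 ± 0.20 (SE), edgeR adjusted p = 0.00128). Of 86 nuclear genes of the respiratory chain 50 rose and 12 fell (median log2 fold change 0.62). The size of this median rests on the same scaling. NDUFS6, of complex I, was at 4.14 and 2.66 CPM at 4 hpf and 37.5 and 34.1 CPM at 6 hpf (log2 fold change 3.40 ± 0.27 (SE), edgeR adjusted p = 1.36e-08). NDUFV1, of the same complex, was at 71.4 and 69.9 CPM at 4 hpf and 53.3 and 67.1 CPM at 6 hpf and did not pass the test (edgeR adjusted p = 0.145). The 64 mitochondrial ribosomal protein genes did not move as one, with 28 up, 17 down and a median of 0.06. Over all genes 37.1% rose and 35.3% fell. Of 48 proteasome subunit genes 32 rose and 7 fell. PSMB6, a catalytic subunit, was at 4.02 and 4.68 CPM at 4 hpf and 65.5 and 64.0 CPM at 6 hpf (log2 fold change 3.89 ± 0.20 (SE), edgeR adjusted p = 1.37e-10). In glycolysis 2 of 7 rose and 3 fell, against the same 37.1% and 35.3%. HK1, a hexokinase of the first step, was at 0.0233 and 0.129 CPM at 4 hpf and 43.0 and 45.2 CPM at 6 hpf. GAPDH was at 278 and 276 CPM at 4 hpf and 171 and 170.2 CPM at 6 hpf, so that these 2 went opposite ways (edgeR adjusted p = 6.39e-06 and 2.60e-05).

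Of 44 genes of mRNA decay 23 fell and 12 rose, against 35.3% and 37.1% of all genes (median log2 fold change -0.41). LSM1, of the decapping complex, was at 41.7 and 31.1 CPM at 4 hpf and 4.61 and 2.39 CPM at 6 hpf. The decapping activator gene patl2, known from oocytes, was at 84.9 and 109 CPM at 4 hpf and 7.86 and 10.7 CPM at 6 hpf (log2 fold change -3.38 ± 0.17 (SE), edgeR adjusted p = 1.17e-10). The zinc finger gene cth1 was at 287 and 307 CPM at 4 hpf and 32.4 and 33.5 CPM at 6 hpf. For LSM1 and cth1 the log2 fold changes ran from -3.17 to -3.40 (largest edgeR adjusted p = 1.77e-08). SMG1, a kinase of nonsense-mediated decay, rose, at 23.2 and 28.3 CPM at 4 hpf and 266 and 209 CPM at 6 hpf (log2 fold change 3.20 ± 0.24 (SE), edgeR adjusted p = 1.04e-08). The second Pat1 gene, patl1, did not pass the test, at 194 and 205 CPM at 4 hpf and 197 and 226 CPM at 6 hpf (edgeR adjusted p = 0.438). In the list of methylation readers, writers and RNA-binding proteins 19 of 33 rose and 9 fell, against the same 37.1% and 35.3%. The nuclear RNA-binding gene hnrnpa0b was at 211 and 295 CPM at 4 hpf and 4614 and 3909 CPM at 6 hpf (log2 fold change 4.07 ± 0.29 (SE), edgeR adjusted p = 3.05e-08). The gene igf2bp1, an mRNA-binding protein, was at 64.3 and 75.3 CPM at 4 hpf and 409 and 411 CPM at 6 hpf. Both rose (igf2bp1 log2 fold change 2.55 ± 0.20 (SE), edgeR adjusted p = 1.63e-08). METTL3, the m6A writer, did not pass the test, at 45.6 and 48.7 CPM at 4 hpf and 59.6 and 43.5 CPM at 6 hpf (edgeR adjusted p = 0.463).

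The lists of markers of later or other cell types were short, and their counts stand against 37.1% of all genes higher and 35.3% lower. Of 7 muscle genes 4 rose and none fell. MYF5, a myogenic regulator chosen after its values were seen, was at 0 and 0 CPM at 4 hpf and 3.98 and 2.68 CPM at 6 hpf (edgeR adjusted p = 1.01e-06). The myosin gene myhz2 was at 0 and 0.0535 CPM at 4 hpf and 0.398 and 0.159 CPM at 6 hpf (edgeR adjusted p = 0.0134, and 0.0983 without replicate 1 at 6 hpf). Of 4 blood and vessel genes 2 rose and 1 fell. LMO2, a blood and vessel regulator, was at 0.0700 and 0.0107 CPM at 4 hpf and 1.39 and 0.999 CPM at 6 hpf (edgeR adjusted p = 5.15e-05). Neither myhz2 nor LMO2 exceeded 1.39 CPM. Of 5 notochord and hatching gland genes 3 rose and 1 fell. The notochord gene noto was at 1.41 and 4.75 CPM at 4 hpf and 58.3 and 63.0 CPM at 6 hpf (log2 fold change 4.29 ± 0.60 (SE), edgeR adjusted p = 3.75e-05). Of 5 ovary and yolk genes 1 rose and 1 fell. CYP11A1, a steroid enzyme gene, here ENSDARG00000002347, was at 161 and 147 CPM at 4 hpf and 39.6 and 46.5 CPM at 6 hpf (log2 fold change -1.84 ± 0.19 (SE), edgeR adjusted p = 2.37e-07).

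The 8 rRNA-depleted libraries of the series gave classes of genes that no pabpc1a MO library had defined. They come from WT embryos at 4 hpf and from embryos at 2, 4 and 6 hpf after 0.2 ng of the RNA polymerase II inhibitor alpha-amanitin. The transcription-dependent class comprises genes whose level at 4 hpf was called and exceeded that of amanitin embryos at least 2-fold in WT, and 4200 of its 4670 genes were tested in the poly(A) libraries. In pabpc1a MO 3226 of the 4200 rose and 176 fell, with a median log2 fold change of 3.69, against 37.1% and 35.3% over all genes. The maternal declining class fell at least 2-fold in amanitin from 2 to 6 hpf and had at least 1 CPM at 2 hpf. Of its 4252 genes 2262 fell and 1077 rose in pabpc1a MO (median -0.85). The maternal stable class, within 0.5 on the log2 scale in amanitin, had 2171 falls and 862 rises among 3907 genes (median -0.75). The transcription-dependent class shared 282 genes with the declining and 144 with the stable class. Stable is relative to the typical mRNA of the amanitin embryos, which were not poly(A)-selected.

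**Figure D3:**
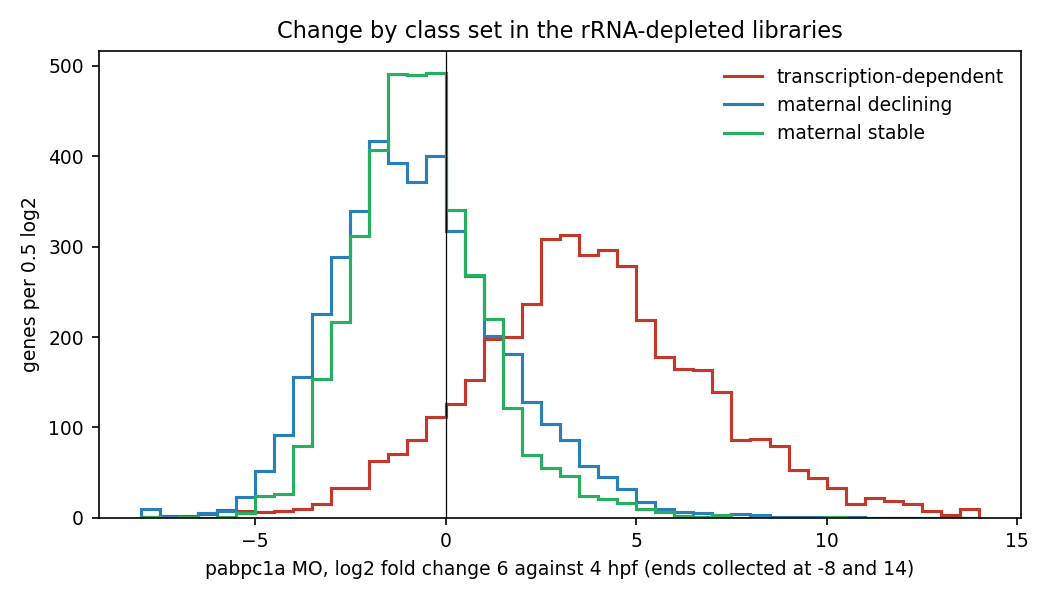
Number of genes by log2 fold change of pabpc1a MO at 6 against 4 hpf, in steps of 0.5, for 3 classes set in the rRNA-depleted libraries. The transcription-dependent class is centred on a median of 3.69. The maternal declining and stable classes have medians left of 0, at -0.85 and -0.75, but 1077 and 862 of their genes were called higher.

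The step of the pabpc1a MO embryos was then set against the same step in WT, as the difference of the 2 log2 fold changes in one model (an interaction). The difference was called for 5109 genes (22.8%), with 3158 steps more upward in pabpc1a MO (14.1%) and 1951 more downward (8.72%). Of the 3158 genes 2782 also rose in pabpc1a MO. For these 3158 the median difference of pabpc1a MO from WT was -1.04 on the log2 scale at 4 hpf and 0.22 at 6 hpf. For the 1951 genes it was 0.68 at 4 hpf and -0.36 at 6 hpf. In both sets the median difference was the larger at 4 hpf. The sets were chosen by the interaction, which is made of these same differences, so opposite signs at the 2 hours were favoured by the choice. These counts and medians rest on the uneven WT pair at 4 hpf. Fitted on the 8 libraries of this comparison alone, the interaction was called for 1072 and 268 genes. Without replicate 2 of WT at 4 hpf, 4296 were more upward and 3373 more downward, and without replicate 1 of pabpc1a MO at 4 hpf 1827 and 1187.

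**Figure D4:**
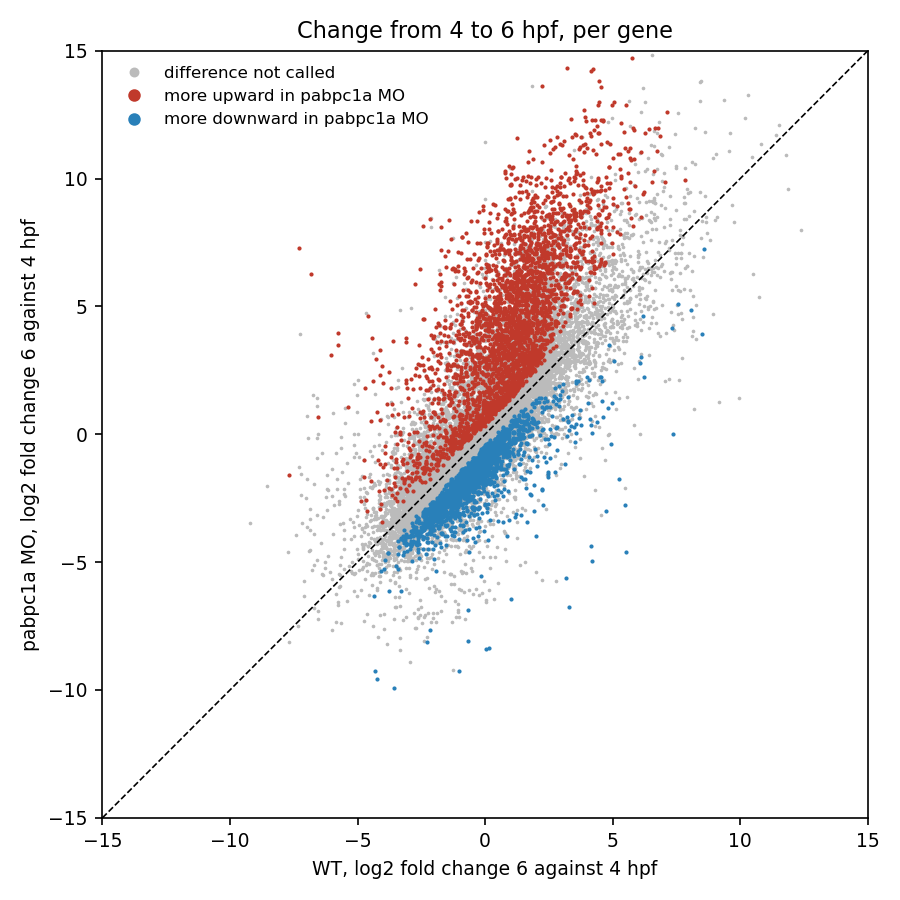
Log2 fold change from 4 to 6 hpf of each tested gene in WT (x axis) and in pabpc1a MO (y axis), with the dashed line at equal change. Red points are the 3158 genes with a step more upward in pabpc1a MO, blue points the 1951 with a step more downward, and grey points the others.

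Many members of the early zygotic and enveloping layer lists had more upward steps than in WT. In the early zygotic list, transcripts known to start before gastrulation, 22 of 27 rose in pabpc1a MO and none fell (median log2 fold change 3.60), while 13 rose and 3 fell in WT (median 0.87). The step was more upward in pabpc1a MO for 18 of the 27, against 14.1% of all genes. In the enveloping layer list it was so for 15 of 25 members. These counts fell to 2 and 6 when only the 8 libraries were fitted. Leaving out single libraries gave 11 (without WT 4 hpf replicate 1) to 23 for the early zygotic list and 9 (without pabpc1a MO 4 hpf replicate 1) to 17 for the enveloping layer. More upward steps than in WT were not confined to these 2 lists. They were called for 1869 of the 4200 transcription-dependent genes, and more downward steps for 35 of them. This class was not recounted with only the 8 libraries fitted. That fit called 1072 more upward steps over all genes, so the class count would be lower there. In the Nodal list 10 of 13 members had a more upward step, or 4 with only the 8 libraries fitted. In the p53 and apoptosis list 11 of 28 had a more upward step and 4 a more downward one. With only the 8 libraries fitted these were 6 and 2. The G protein gene gna15.1 was at 0.128 and 0.118 CPM at 4 hpf and 223 and 214 CPM at 6 hpf in pabpc1a MO. In WT it was at 120 and 23.0 CPM at 4 hpf and 285 and 244 CPM at 6 hpf, and the step differed by 8.89 ± 1.08 (SE), edgeR adjusted p = 4.90e-04 on the log2 scale. For krt92 the WT libraries held 44.8 and 7.10 CPM at 4 hpf and 428 and 331 CPM at 6 hpf, and the step differed by 8.80 ± 1.29 (SE), edgeR adjusted p = 0.00166. At 4 hpf both WT libraries were above both pabpc1a MO libraries for both genes, and at 6 hpf the groups overlapped for krt92. B3GNT5 had the largest difference, at 23.9 and 3.07 CPM in WT at 4 hpf and 133 and 148 CPM at 6 hpf (interaction 8.93 ± 1.33 (SE), edgeR adjusted p = 0.00121). In ybx1 MO at 4 hpf krt92 was at 0.0198 and 0.154 CPM and B3GNT5 at 0.0692 and 0.0140 CPM, also near 0. The steps of krt92 and B3GNT5 were not called different between the 2 knockdowns (interaction, edgeR adjusted p = 0.869 and 0.837). The summed early zygotic list reached 6209 and 5910.1 CPM in pabpc1a MO and 6301 and 5115 CPM in WT at 6 hpf, so the 2 groups overlapped there.

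In other genes the groups differed at 6 hpf too. CRABP2, a retinoic acid binding protein gene, here ENSDARG00000030449, had 0 and 0.0428 CPM at 4 hpf and 167 and 95.8 CPM at 6 hpf in pabpc1a MO. In WT it had 32.2 and 5.68 CPM at 4 hpf and 319.9 and 259 CPM at 6 hpf. Its level was lower in both pabpc1a MO libraries than in WT at either hour, and its step was more upward by 8.48 ± 1.41 (SE), edgeR adjusted p = 0.00225. In ybx1 MO it was also near 0 at 4 hpf, at 0.0890 and 0.126 CPM. The 2 knockdowns were not called different in this step (interaction, edgeR adjusted p = 0.516). PTGS2, a prostaglandin synthase gene, here ENSDARG00000004539, had 0.0117 and 0.0535 CPM at 4 hpf and 30.1 and 34.4 CPM at 6 hpf in pabpc1a MO. In WT it had 8.40 and 1.39 CPM at 4 hpf and 20.2 and 13.2 CPM at 6 hpf (interaction 8.07 ± 1.17 (SE), edgeR adjusted p = 0.00118). It was below WT at 4 hpf and above WT at 6 hpf in both libraries. Genes named by the size of their interaction tend to cross between the hours, so a crossing is no separate result. Of the more downward steps, msx1b is a BMP target that rose in WT, from 1.06 and 2.68 CPM to 31.0 and 34.6 CPM, with an interaction of -3.52 ± 0.48 (SE), edgeR adjusted p = 2.34e-04. In pabpc1a MO it was higher than in WT at 4 hpf and lower at 6 hpf in every library. The gene scinlb, for an actin-severing scinderin, was at 1.29 and 0.760 CPM at 4 hpf and 10.4 and 6.15 CPM at 6 hpf in pabpc1a MO. In WT it was at 0.381 and 0.284 CPM at 4 hpf and 25.5 and 19.8 CPM at 6 hpf (interaction -3.09 ± 0.62 (SE), edgeR adjusted p = 0.00275), and in ybx1 MO at 0.208 and 0.169 CPM at 4 hpf and 13.1 and 14.2 CPM at 6 hpf (interaction -3.15 ± 0.64 (SE), edgeR adjusted p = 0.00316). It rose in pabpc1a MO, from a higher level at 4 hpf to a lower one at 6 hpf than in the other groups. In the germ plasm list 8 of 18 members had a more downward step against 8.72% of all genes, but none did when only the 8 libraries were fitted. For pabpc1a itself the difference did not pass the test (interaction 0.39 ± 0.21 (SE), edgeR adjusted p = 0.208), and it did without replicate 2 of WT at 4 hpf (0.60, edgeR adjusted p = 0.0205) or at 6 hpf (0.67, edgeR adjusted p = 0.022). For YBX1 it did (interaction 1.02 ± 0.25 (SE), edgeR adjusted p = 0.00924), though not when only the 8 libraries were fitted (edgeR adjusted p = 0.0923), and without replicate 1 of WT at 4 hpf the interaction was 0.53.

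**Figure D5:**
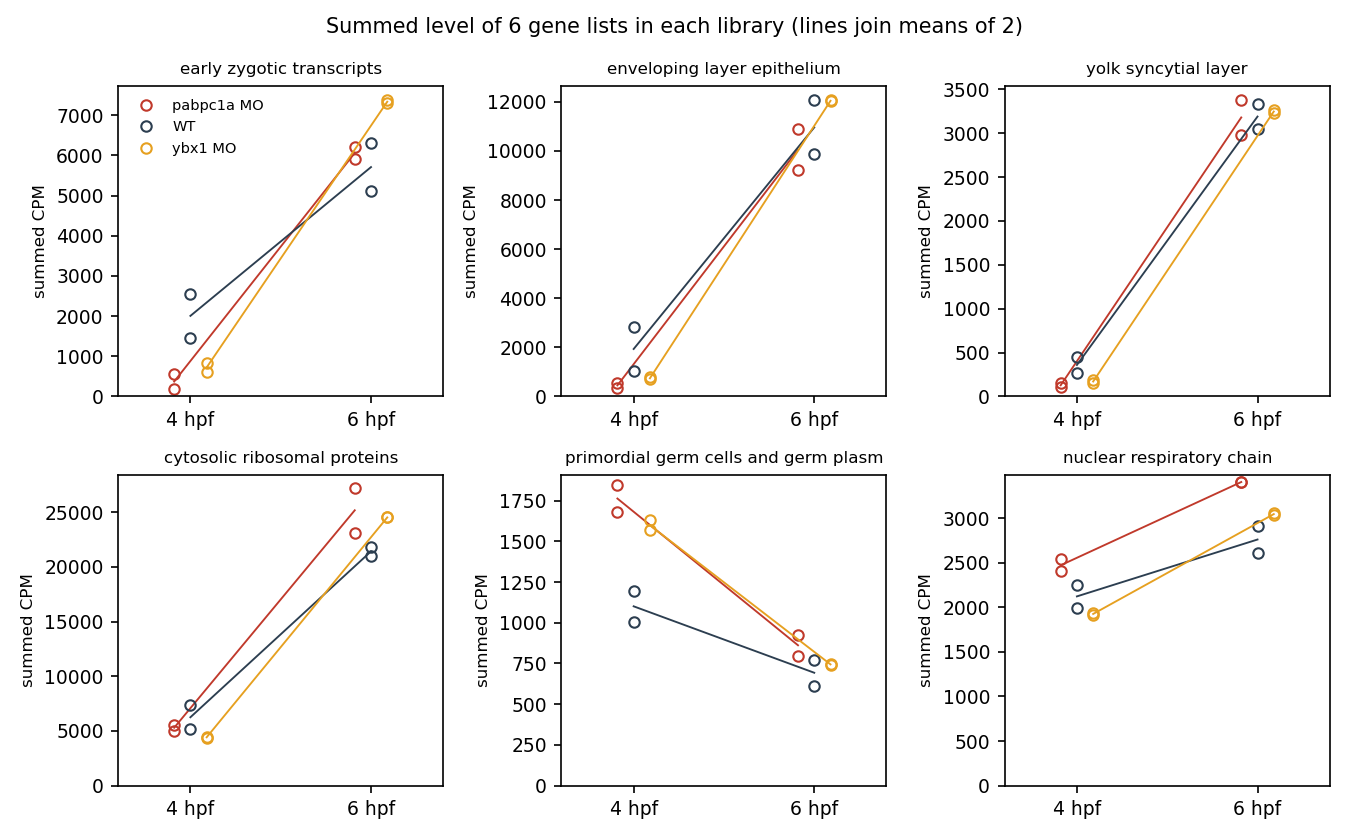
Summed CPM of the tested members of 6 gene lists in each library of pabpc1a MO, WT and ybx1 MO at 4 and 6 hpf, with lines joining the means of 2 libraries. The early zygotic sum is 181 and 558 CPM in pabpc1a MO and 2545 and 1464 CPM in WT at 4 hpf, and these 2 groups overlap at 6 hpf. Both ybx1 MO libraries lie above them at 6 hpf, at 7367 and 7303.5 CPM.

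Set against ybx1 MO, the other knockdown, the step differed for 3745 genes (16.7%), 1979 more upward in pabpc1a MO (8.84%) and 1766 more downward (7.89%). The 8 libraries of this comparison alone gave 2011 and 2191. Leaving out single libraries gave 1110 (without ybx1 MO 6 hpf replicate 2, one of the very close pair) to 1956 upward, and 1097 (without replicate 1 of that pair) to 1445 downward. In the early zygotic list 1 of 27 members was called, more upward, and in the enveloping layer list 1 of 25, more downward, against 16.7% of all genes. Without replicate 2 of pabpc1a MO at 4 hpf, 7 early zygotic and 2 enveloping layer members had a more upward step. In the list of poly(A)-binding proteins and their partner PAIP1, 3 of 7 genes had a more upward step in pabpc1a MO and none a more downward one. They were the 3 that fell, PABPC1L, PAIP1 and pabpn1l, with differences of 0.84, 0.68 and 0.95 (edgeR adjusted p = 0.00562, 0.0434 and 0.00632), so each fell by less than in ybx1 MO. The call of PAIP1 was lost without replicate 1 of pabpc1a MO at 4 hpf (edgeR adjusted p = 0.138) and without most other single libraries. A step more downward in pabpc1a MO was called for 29 of 86 respiratory chain genes and for 23 of 64 mitochondrial ribosomal protein genes, against 7.89% of all genes. Over the left-out libraries the counts ran from 20 to 28 and from 13 (without ybx1 MO 6 hpf replicate 2) to 21. Such steps were not confined to these 2 lists. They were called for 13 of 48 proteasome, 9 of 37 translation factor, 13 of 70 cytosolic ribosomal protein and 9 of 44 mRNA decay genes. More upward steps in these lists numbered 0, 3, 2 and 2. NDUFS6 was at 1.07 and 0.955 CPM at 4 hpf and 44.0 and 44.8 CPM at 6 hpf in ybx1 MO, lower than pabpc1a MO at 4 hpf and higher at 6 hpf (interaction -2.05 ± 0.37 (SE), edgeR adjusted p = 0.00126).

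Single genes separated the 2 knockdowns. Here too a choice by the size of the interaction favours a crossing of levels between the hours. NSUN5, an RNA m5C methyltransferase, was at 25.4 and 23.6 CPM at 4 hpf and 13.9 and 13.1 CPM at 6 hpf in pabpc1a MO. In ybx1 MO it was at 20.6 and 23.5 CPM at 4 hpf and 105 and 107 CPM at 6 hpf. In WT it was at 26.3 and 24.1 CPM at 4 hpf and 49.4 and 35.4 CPM at 6 hpf. It fell in pabpc1a MO and rose in ybx1 MO (edgeR adjusted p = 5.97e-05 and 1.06e-09, interaction -3.13 ± 0.21 (SE), edgeR adjusted p = 3.01e-07). PNO1, a ribosome assembly gene, was at 43.4 and 41.0 CPM at 4 hpf and 128 and 116 CPM at 6 hpf in pabpc1a MO. The ybx1 MO libraries held 4.58 and 5.39 CPM at 4 hpf and 138 and 143 CPM at 6 hpf (interaction -3.29 ± 0.19 (SE), edgeR adjusted p = 6.25e-08). Its pabpc1a MO level was the higher at 4 hpf and the lower at 6 hpf. BIN2, a membrane-bending protein gene, was at 0.595 and 1.01 CPM at 4 hpf and 5.09 and 6.04 CPM at 6 hpf in pabpc1a MO. Its ybx1 MO level was 0.663 and 1.03 CPM at 4 hpf and 100.3 and 98.6 CPM at 6 hpf (interaction -4.10 ± 0.53 (SE), edgeR adjusted p = 1.10e-04). Its groups overlapped at 4 hpf and were apart at 6 hpf. In the other direction the yolk layer apolipoprotein gene apoa1a was at 0.0117 and 0.0643 CPM at 4 hpf and 19.0 and 10.5 CPM at 6 hpf in pabpc1a MO. The ybx1 MO level was 0.0791 and 0.126 CPM at 4 hpf and 0.990 and 1.11 CPM at 6 hpf (interaction 5.13 ± 0.75 (SE), edgeR adjusted p = 2.53e-04). In ybx1 MO its level was also higher at 6 hpf than at 4 hpf, but reached only about 1 CPM. The linker histone gene histh1l1 was at 0.863 and 1.60 CPM at 4 hpf and 430 and 483 CPM at 6 hpf in pabpc1a MO. In ybx1 MO it was at 7.97 and 10.5 CPM at 4 hpf and 199 and 193 CPM at 6 hpf (interaction 4.12 ± 0.84 (SE), edgeR adjusted p = 0.00705). At 6 hpf both pabpc1a MO libraries were above both ybx1 MO libraries for apoa1a and histh1l1.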

How the data were processed

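Of the 28 libraries of whole embryos 20 are poly(A)-selected and 8 rRNA-depleted, with paired reads of 125 bases. The deposited values are counts per gene ID, made with TopHat2 2.1.1 and HTSeq 0.6.0, per the submitters' processing notes. The kit named in the series' text for the poly(A) libraries keeps strand, but for the counting no source used here gives the genome build, annotation or strand setting, so overlapping and antisense genes are uncertain. Of 33737 gene IDs 21939 have a symbol.

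From these counts edgeR 4.0.16 (with limma 3.58.1 in R 4.3.3) fitted 1 robust quasi-likelihood model over the 20 poly(A) libraries in 10 groups of 2, so all groups share 1 estimate of the spread. Library sizes were scaled by TMM. The filter of edgeR on low counts left 22377 genes, and p-values were adjusted over them by Benjamini-Hochberg at a threshold of 0.05. Differences between steps are interaction terms of the same model. The rRNA-depleted libraries were fitted separately over 21525 genes. No 2 libraries held identical counts.

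The 38 gene lists (597 of 929 symbols matched) and the genes compared were chosen with earlier results of these data known. Genes with no symbol match are left out, and some genes that met the naming rule are not reported here. Named genes followed a rule: the 15 largest rises and falls with a symbol, non-overlapping libraries, a mean of 10 CPM or more in the group with the higher level and over 3 counts in the other, the 10 most abundant called each way, up to 5 called and 2 uncalled members of each list, and 8 each way for each interaction. Other genes are said to be chosen after their values were seen, or named as the only member that fell.

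Alternatives were DESeq2 1.42.0, median-of-ratios scaling, other filters and thresholds, a replicate block, only the groups compared, and each library left out. The tests were tried on simulated counts with known changes of 66 or 67 genes at each fold, far fewer than changed in the data. The step recovered 10.4%, 49.3% and 72.7% of changes of 1.5-fold, 2-fold and 4-fold. The interaction with WT recovered 1.49%, 10.4% and 45.5%, and missed the recovery first required of it at 4-fold. An interaction that was not called therefore does not show that steps were alike.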

Additional observations from a re-analysis of the deposited data

Results flagged for a closer look

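Among the genes compared between embryo groups in their step from 4 to 6 hpf, the following passed the test. Each had an adjusted p under 0.05 over 22377 genes for the interaction term of edgeR's quasi-likelihood test. So did 22.8% of all genes against WT and 16.7% against ybx1 MO, so a call alone does not set a gene apart. The values are differences of log2 fold changes, pabpc1a MO minus the other group, and are given as measured. Set against WT, the step was more upward for B3GNT5 by 8.93, gna15.1 by 8.89, krt92 by 8.80, CRABP2 by 8.48, PTGS2 by 8.07 and YBX1 by 1.02. It was more downward for scinlb (-3.09) and msx1b (-3.52). Set against ybx1 MO, the step was more upward for apoa1a by 5.13, frem1b by 4.46, histh1l1 by 4.12, pabpn1l by 0.95, PABPC1L by 0.84 and PAIP1 by 0.68. It was more downward for NDUFS6 (-2.05), HIC1 (-2.97), NSUN5 (-3.13), scinlb (-3.15), PNO1 (-3.29) and BIN2 (-4.10). With 2 libraries a group, no single library was tested for standing apart from its group. The calls of PAIP1 and YBX1 were not kept under every alternative fit. The WT pair at 4 hpf was uneven. Without 1 or the other of its libraries the values against WT kept their sign and passed the test, with a range over all libraries left out of 6.75 to 9.76 for B3GNT5 and of 0.534 (without replicate 1 of WT at 4 hpf) to 1.35 for YBX1.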

How the results depend on the processing

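The count of genes that changed in pabpc1a MO kept within 1.5 times of 8310 higher and 7909 lower under every alternative run, with 7213 to 7712 higher and 7105 to 7516 lower when 1 library was left out. Scaling moved the balance most: median-of-ratios size factors gave 9431 and 6717, and DESeq2 gave 9217 and 6749. Against WT the counts of 3158 and 1951 became 1463 and 837 at an adjusted p under 0.01, and 1072 and 268 with only the 8 libraries fitted. A further requirement of at least 2-fold left 1185 downward. Leaving out a library gave 1827 to 4296 and 1187 to 3373. Against ybx1 MO the counts of 1979 and 1766 became 884 and 906 at an adjusted p under 0.01, 1132 downward remained at least 2-fold, and leaving out a library gave 1110 to 1956 and 1097 to 1445. With classes set at 4-fold, 84 transcription-dependent genes fell, and 609 maternal declining genes rose and 1128 fell. With a minimum of 5 CPM, 655 declining genes rose. The cause was not tested.

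With replicate number as a block, 8267 genes rose and 7868 fell, 3037 and 1882 differed from WT, and 1933 and 1748 differed from ybx1 MO. The labels give no meaning to the shared numbers, and the deviations of the pabpc1a MO pairs correlated by 0.179, with 2 pairs. The block changed no call of a gene named here.

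Some genes with a log2 fold change near 0 that did not pass the test changed sign with scaling, as did SMAD5, which had fallen. With median-of-ratios scaling and DESeq2 the log2 fold changes were 0.19 and 0.19 for EIF1B, 0.0192 and 0.0196 for LEF1, 0.0895 and 0.0905 for NDUFV1, 0.0330 and 0.0333 for SMAD5, 0.29 and 0.29 for dharma, 0.15 and 0.15 for epcam and 0.10 and 0.10 for st14a. For dharma it was also 0.0935 with the stricter filter, 0.0832 without the most abundant gene and 0.0433 with only the 4 libraries. Without single libraries it ranged from -0.126 to 0.321 for METTL3, -0.0464 to 0.135 for YAP1, -0.557 to 0.597 for dharma, -0.623 to 0.244 for epcam, -0.0910 to 0.774 for ndr1 and -0.0325 to 0.174 for patl1. CDC42, DLD, SCRIB, YAP1, METTL3, msx1b and patl1 passed the test with median-of-ratios scaling, where the median of all genes was 0.36 against 0.03, and with DESeq2. CDC42 and DLD also passed it with the stricter filter, without the most abundant gene and with only the 4 libraries, and SCRIB with the stricter filter. With 2 libraries a group, small changes were detected only in part.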

Other observations

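Of the 10 most abundant mRNAs that rose in pabpc1a MO, 3 are described here. The gene hmga1a, for a chromatin protein that binds AT-rich DNA, was at 687 and 791 CPM at 4 hpf and 10454 and 8949 CPM at 6 hpf (log2 fold change 3.71 ± 0.21 (SE), edgeR adjusted p = 8.41e-10). The cold-inducible RNA-binding gene cirbpb was at 610.2 and 641 CPM at 4 hpf and 4642 and 3679.8 CPM at 6 hpf. The RNA-binding gene khdrbs1a was at 1029 and 1047 CPM at 4 hpf and 5386 and 4937 CPM at 6 hpf. For the last 2 the log2 fold changes ran from 2.31 to 2.73 (largest edgeR adjusted p = 3.88e-08).

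Single genes not yet described also had different steps in the 2 knockdowns. HIC1, a transcriptional repressor gene, was at 18.5 and 22.3 CPM at 4 hpf and 5.75 and 8.05 CPM at 6 hpf in pabpc1a MO. In ybx1 MO it was at 8.80 and 13.5 CPM at 4 hpf and 29.2 and 30.1 CPM at 6 hpf (interaction -2.97 ± 0.44 (SE), edgeR adjusted p = 3.39e-04). The extracellular matrix gene frem1b was at 0.338 and 0.685 CPM at 4 hpf and 11.1 and 14.2 CPM at 6 hpf in pabpc1a MO. In ybx1 MO it was at 1.79 and 2.05 CPM at 4 hpf and 1.89 and 2.39 CPM at 6 hpf, and in WT at 1.04 and 1.17 CPM at 4 hpf and 5.32 and 7.22 CPM at 6 hpf (interaction with ybx1 MO 4.46 ± 0.46 (SE), edgeR adjusted p = 1.55e-05). HIC1 was lower at 6 hpf in both pabpc1a MO libraries and higher at 6 hpf in both ybx1 MO libraries, while frem1b rose in pabpc1a MO and its ybx1 MO libraries overlapped between the hours.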
